A study of Phaseolus vulgaris with 2 samples.

Results

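The genes described are 5 chaperone genes of common bean (Phaseolus vulgaris), HSP70 (Phvul.011G065000), HSP70B (Phvul.003G154800), HSC70-1 (Phvul.008G013000), HSP90.1 (Phvul.004G107700) and HSP101 (Phvul.004G044100), out of 27197 genes in the deposited expression table. They were chosen by identifier, as the HSP70, HSP90 and HSP101 genes that the study lists in its protein folding group. The study took that group from genes it had called lower under drought in these same libraries, so the direction of their difference is a description and not independent evidence. Drought was represented by aerial tissue of wild-type Pinto Saltillo (PS), a bean cultivar described as drought tolerant, from 45-day-old seedlings that then went without irrigation for 2 weeks. Control plants were PS seedlings of the same age that were irrigated throughout, and both groups were grown in a greenhouse on vermiculite with Hoagland's nutrient solution. Each pool held 6 to 9 plants and RNA was combined by condition, so the table holds 1 value per gene and condition, the differences below have no replicate check within it, and no p-value is given. The study also ran semi-quantitative RT-PCR of HSP70 and of the heat shock factor gene HSFA2, on RNA from separate experiments. That RT-PCR was not analysed here. Poly(A) RNA was sequenced, and expression is given as FPKM, a fragment density along the transcript that is adjusted for library depth, which allows levels of genes of different length to be compared.

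HSP70 proteins are ATP-driven chaperones that bind exposed hydrophobic stretches of unfolded or newly made proteins, and J-domain co-chaperones pass substrates to them. HSP90 proteins act later, on clients that are close to their folded state, such as kinases and receptors. HSP101, a hexameric ATPase of the ClpB family, pulls proteins out of aggregates so that HSP70 can refold them. In Arabidopsis the transcription of many of these genes is driven by heat shock factors, and HSP101 is needed for acquired tolerance to heat.

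All 5 genes had lower FPKM in the drought library than in the control library. HSP70, named after a heat-inducible cytosolic HSP70 of Arabidopsis, was measured at 14.5 FPKM in drought and 209 FPKM in control. HSP70B, another HSP70, had 7.97 FPKM in drought and 70.2 FPKM in control. HSC70-1, whose Arabidopsis namesake is a cognate HSP70 made also without heat, had 15.3 FPKM in drought and 68.6 FPKM in control. Among the HSP70 genes, HSP70 and HSC70-1 were thus close in drought and HSP70B was lower. In control HSP70 stood well above HSP70B and HSC70-1, which were close. HSP90.1, which carries the name of a heat-inducible cytosolic HSP90 of Arabidopsis, was at 5.34 FPKM in drought and 60.0 FPKM in control. HSP101 was the lowest of the 5 in both libraries, with 0.233 FPKM in drought and 2.71 FPKM in control.

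**Figure D1:**
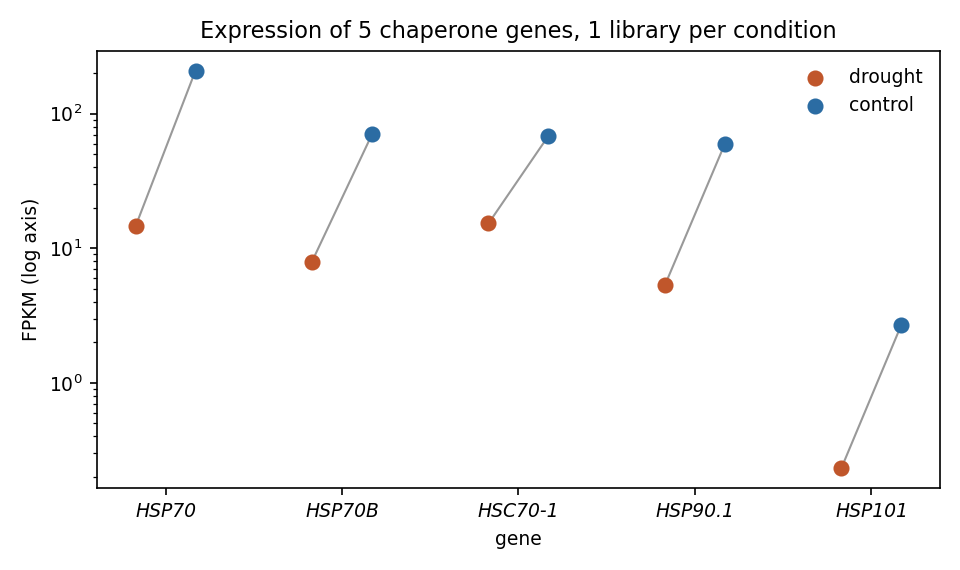
FPKM of the 5 chaperone genes on a log axis, with 1 point for the drought library (left of each pair) and 1 for the control library, joined by a line. The drought point is below the control point for each gene, and the HSP70 pair spans 14.5 FPKM in drought and 209 FPKM in control.

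As a share of the control level, the drought level was 6.95% for HSP70, 8.61% for HSP101, 8.90% for HSP90.1, 11.4% for HSP70B and 22.3% for HSC70-1. Of the 5, HSC70-1, named for a cognate HSP70, had the largest share and the gene named for the stress-inducible HSP70 the smallest. The log2 ratio of drought FPKM + 1 over control FPKM + 1 was −3.76 for HSP70, −3.27 for HSP90.1, −2.99 for HSP70B, −2.09 for HSC70-1 and −1.59 for HSP101. The added 1 has a large effect for a gene as low as HSP101, whose log2 ratio without it was −3.54. HSP101 was below 1 FPKM in drought, so its share and its ratio are uncertain. On the scale with the added 1, 4 of the 5 genes were at least 4-fold lower in drought, and HSP101 was not. An FPKM of 1 or more in drought, in control or in both was reached by 19661 genes, here called expressed, and 1.62% of them were at least 4-fold lower in drought. All 5 genes were at least 2-fold lower, as were 6.6% of the expressed genes. Because the genes were picked from a list of lower genes, nothing is read from the distance between these shares. HSC70-1 lay close to the 4-fold limit, and its log2 ratio became −1.99 when both libraries were scaled to the same sum of FPKM, which left 3 of the 5 genes past the limit. In tissue extracts, fewer cells of a type and less RNA per cell cannot be told apart.

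Summed over the 5 genes, expression was 43.4 FPKM in drought and 411 FPKM in control, so the drought sum was 10.6% of the control sum. The composition of this sum differed between the libraries. HSP70 made up 33.5% of it in drought and 50.9% in control. HSC70-1 made up 35.3% in drought and 16.7% in control. HSP70B supplied 18.4% in drought and 17.1% in control, HSP90.1 supplied 12.3% in drought and 14.6% in control, and HSP101 was below 1% in both. The ratio of HSP70 to HSC70-1 was 0.950 in drought and 3.05 in control. HSP70 was thus just under HSC70-1 in drought and well over it in control. The ratio of HSP70 to HSP90.1 was closer in the libraries, at 2.72 in drought and 3.49 in control.

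The positions in the table place the genes on 4 chromosomes. HSP70 is at chr11:5660904-5663992, HSP70B at chr3:35968689-35970638 and HSC70-1 at chr8:1145634-1148629. HSP90.1 at chr4:35672544-35675746 and HSP101 at chr4:4987647-4990388 share a chromosome but lie far apart on it. The gene models span between 1950 bp for HSP70B and 3203 bp for HSP90.1, and none overlaps another gene of the table. Identifiers in the table end in version 1.0, whereas the methods name annotation version 2.1 of accession G19833, so the build of these positions is not settled. No exon structure was used here.

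Of the 10 genes directly beside the 5 genes on the chromosomes, at gaps of 273 to 9233 bp, 8 were expressed, and the log2 ratios of the 10 ran from −0.72 to 1.69. Phvul.011G065100, next to HSP70, had 93.0 FPKM in drought and 100.1 FPKM in control. Phvul.003G154700, 1187 bp from HSP70B, had 76.0 FPKM in drought and 74.6 FPKM in control. The gene past the 2-fold limit was Phvul.008G012900, beside HSC70-1, and it was higher in drought, with 15.5 FPKM against 4.13 FPKM in control.

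The Gene Ontology (GO) terms that the table attaches to each gene describe what the 5 genes share. They carry 35 different terms in all, from 12 terms on HSP90.1 to 19 on HSP70 and HSC70-1. All 5 carry ATP binding, protein folding and response to heat, and protein folding was part of how the study grouped them. Another 5 terms are on 4 of the genes: response to hydrogen peroxide, response to high light intensity and response to endoplasmic reticulum stress are missing from HSP90.1, and cytosol and plasma membrane are missing from HSP101. Response to virus and cell wall mark the HSP70 genes alone among the 5. Of the 5, HSP90.1 alone carries unfolded protein binding, and HSP101 alone carries protein unfolding and ATPase activity. Cytoplasm is on HSP70B, HSP90.1 and HSP101, and chloroplast is on HSP70B. For location, HSP101 also carries chloroplast stroma and chloroplast envelope but no cytosol term, although the Arabidopsis HSP101 is a cytosolic and nuclear protein. The identity of that gene beyond its identifier and these terms was not checked here. None of the 5 carries response to water deprivation. Across the table, 42 expressed genes carry the 3 terms common to the 5 genes; 5 of the 42 were at least 4-fold lower in drought and 0 were higher, with a median log2 ratio of −0.41. Of those 5 lower genes, 4 were HSP70, HSP70B, HSC70-1 and HSP90.1 themselves. Among the other 37 genes 1 was lower, with a median of −0.40, whereas 1.62% of all expressed genes were lower by that limit.

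Ranked among protein folding genes, the 5 genes took up the low end of the log2 ratios at different depths. Of 368 genes with the term, 323 were expressed. By log2 ratio from the lowest, HSP70 was at rank 1, HSP90.1 at rank 2, HSP70B at rank 6, HSC70-1 at rank 23 and HSP101 at rank 36 of the 323. Among all 19661 expressed genes, HSP70 was at rank 26, HSP90.1 at 53, HSP70B at 74, HSC70-1 at 284 and HSP101 at 544. Ranked by level from the highest, HSP70 was at 163 among the 323 genes in drought and at 13 in control. HSP70B was at 222 in drought and 50 in control, HSC70-1 at 162 in drought and 54 in control, and HSP90.1 at 255 in drought and 58 in control. HSP101 was near the bottom in both libraries, at 320 in drought and 299 in control. Thus 4 of the 5 genes were among the more abundant folding genes in control, and these 4 sat in the middle or lower part of the order in drought. By difference in FPKM instead of ratio, HSP70 was at rank 5, HSP70B at 23, HSP90.1 at 24, HSC70-1 at 27 and HSP101 at 176.

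**Figure D2:**
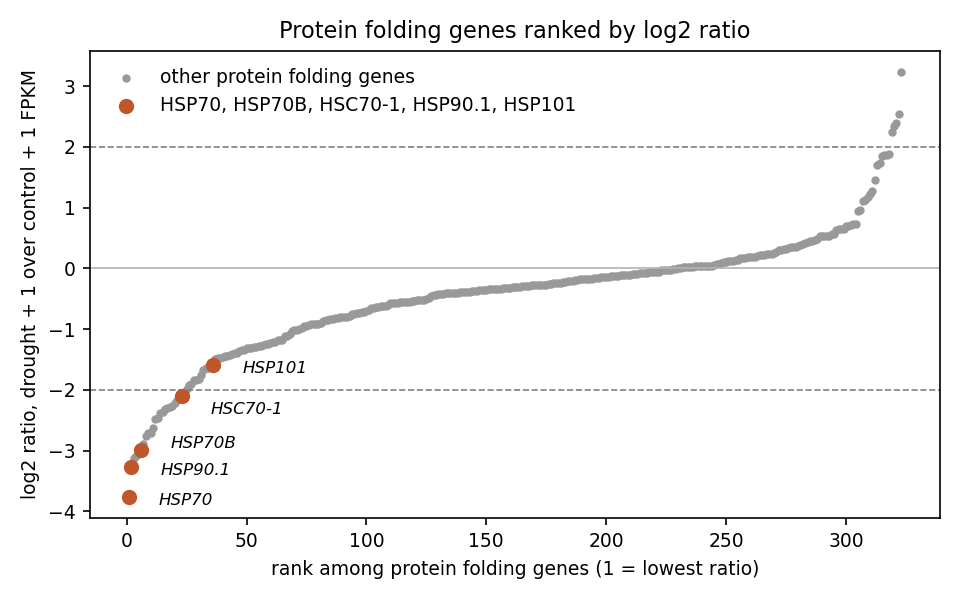
Log2 ratio of drought FPKM + 1 over control FPKM + 1 for the 323 protein folding genes, ordered from the lowest ratio (rank 1), with the 5 chaperone genes marked and dashed lines at the 4-fold limits. HSP70 and HSP90.1 are the lowest points, HSC70-1 lies just past the lower limit at rank 23 and HSP101 short of it at rank 36.

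Protein folding genes as a whole were lower in drought by a small median amount. Of the 323 genes, 24 (7.43%) were at least 4-fold lower in drought and 5 (1.55%) at least 4-fold higher, whereas 1.62% of all expressed genes were lower and 2.48% higher by that limit. At 2-fold, 72 (22.3%) were lower and 17 (5.26%) higher, against 6.6% lower and 11.7% higher among all expressed genes. Their median log2 ratio was −0.31, and that of all expressed genes −0.03. Without the 5 chaperone genes, 20 were at least 4-fold lower and the median was −0.30. The summed FPKM of the 323 genes was 12251 in drought and 15992 in control, and the 5 genes supplied 0.354% of it in drought and 2.57% in control. Leaving the 5 genes out, the drought sum was 78.3% of the control sum, compared with 10.6% for the 5 genes. The 5 were picked from a list of lower genes, so nothing is read from this contrast.

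Some of the most abundant folding genes had smaller fold differences than the 5 chaperone genes, which were picked as lower. The protein folding gene with the highest control level, Phvul.011G100000, had 725 FPKM in drought and 1075 FPKM in control, a log2 ratio of −0.57. Phvul.011G071300 followed at 654 FPKM in drought and 991 FPKM in control, and Phvul.010G107400 had 212 FPKM in drought and 388 FPKM in control. In contrast, Phvul.011G026900 was higher in drought, at 1073 FPKM against 723 FPKM in control, and so was Phvul.007G157200, at 849 FPKM against 729 FPKM in control. Of the 58 folding genes that reached at least the control level of HSP90.1, 54 are not among the 5. Of these 54, 9 were at least 4-fold lower in drought and 0 higher, 44 had a log2 ratio below 0, and the median was −0.76. Selection by control level alone favours genes that are lower in drought. Of all 19661 expressed genes, 1.62% were at least 4-fold lower and 2.48% higher. Among them 10219 had a log2 ratio below 0, and the median was −0.03.

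At the low end, the genes next to HSP70 and HSP90.1 by log2 ratio were Phvul.010G125300, with 0.290 FPKM in drought and 10.2 FPKM in control, Phvul.006G046000, with 13.3 FPKM in drought and 121 FPKM in control, and Phvul.008G228000, with 30.6 FPKM in drought and 259 FPKM in control. These 3 genes bear no symbol in the sources used here. At the other end, the largest log2 ratios of folding genes belonged to AT2G42750 (Phvul.011G127500), a gene for a J-domain protein in Arabidopsis, at 51.7 FPKM in drought and 4.61 FPKM in control. Cpn60beta4 (Phvul.006G034900), a subunit of the chloroplast chaperonin, had 32.7 FPKM in drought and 4.78 FPKM in control. AT5G23240 (Phvul.003G004300), another J-domain protein, had 69.1 FPKM in drought and 12.3 FPKM in control. Phvul.004G137600 had 123 FPKM in drought and 23.57 FPKM in control, and AT1G02650 (Phvul.001G212000) had 7.06 FPKM in drought and 0.709 FPKM in control.

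A closer comparison set each of the 5 genes beside genes of the table that carry exactly the same list of GO terms, a grouping chosen after the values had been seen. HSP70 and HSC70-1 carry the same list as each other and share it with 5 further genes. Phvul.008G011900 had 3.46 FPKM in drought and 3.51 FPKM in control, Phvul.008G011400 had 1.34 FPKM in drought and 1.28 FPKM in control, and Phvul.009G076700 had 1.43 FPKM in drought and 1.08 FPKM in control. Phvul.008G011600 and Phvul.008G011300 were below 1 FPKM in both libraries. All 5 were low and within 2-fold on the scale with 1 added, and 4 of them lie on chromosome 8 between positions 1050999 and 1078521, on the lower-coordinate side of HSC70-1. The summed level of the 7 genes was 36.9 FPKM in drought and 284 FPKM in control, and HSP70 supplied 39.4% of it in drought and 73.5% in control, HSC70-1 41.5% in drought and 24.1% in control.

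The list of HSP70B is shared with 2 genes that were higher in drought. Phvul.006G170200 had 36.1 FPKM in drought and 26.5 FPKM in control, and Phvul.006G170300, its neighbour on chromosome 6, had 3.66 FPKM in drought and 2.22 FPKM in control. Their log2 ratios were 0.43 and 0.53, opposite in sign to the −2.99 of HSP70B. HSP70B supplied 16.7% of the sum of these 3 genes in drought and 71.0% in control, and the drought sum was 48.2% of the control sum. For HSP70B itself the drought level was 11.4% of the control level.

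HSP90.1 shares its list with 9 genes. Phvul.008G281400 had 43.6 FPKM in drought and 108 FPKM in control, and Phvul.008G281300 had 28.1 FPKM in drought and 68.0 FPKM in control. These genes lie side by side on chromosome 8 and had log2 ratios of −1.29 and −1.25, lower in drought but by less than the −3.27 of HSP90.1. The other 7 genes of the list were listed at 0 in both libraries. Of the sum of all 10, HSP90.1 accounted for 6.93% in drought and 25.4% in control, and the drought sum was 32.7% of the control sum.

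HSP101 shares its list with Phvul.004G043900, which had 0.0987 FPKM in drought and 1.48 FPKM in control, and with Phvul.009G192500, which had 0.621 FPKM in drought and 2.75 FPKM in control. Both were low and lower in drought, like HSP101, with log2 ratios of −1.18 and −1.21. Phvul.004G043900 ends 18033 bp before HSP101 starts on chromosome 4, with 1 gene between them. The sum of these 3 genes was 0.953 FPKM in drought and 6.94 FPKM in control, or 13.7%. Over all the lists, 18 genes other than the 5 share a list with them, and 9 of these were expressed. Of the 9, 4 were at least 2-fold lower and 0 at least 4-fold lower, against 6.6% and 1.62% of all expressed genes. Their log2 ratios ran from −1.29 to 0.53. The 5 were picked as lower, so nothing is read from their distance to these genes. No sequences of these genes were compared. How reads that match several genes were divided is not given in the sources used here, so the split among any closely similar genes of a list is uncertain.

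**Figure D3:**
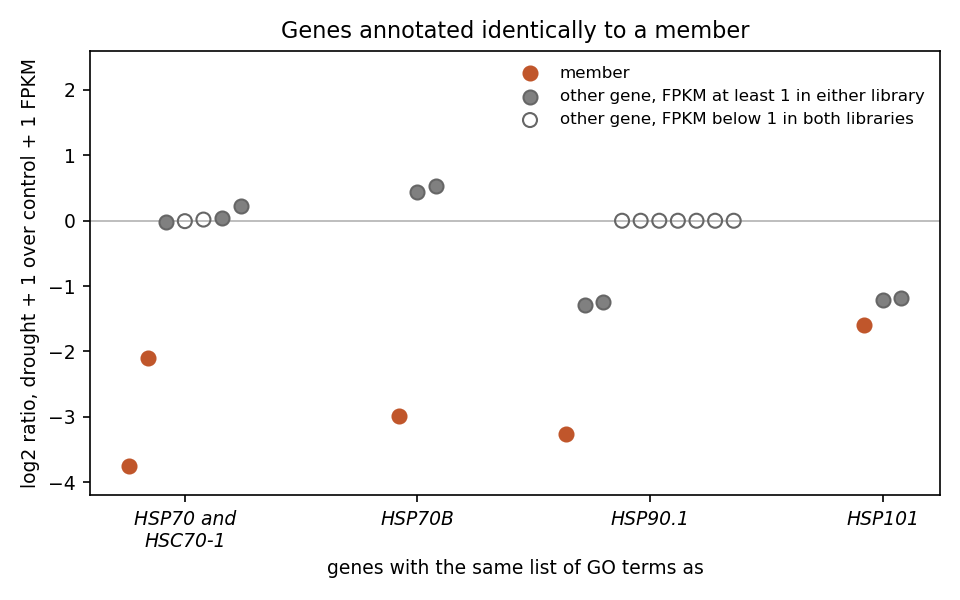
Log2 ratio of drought FPKM + 1 over control FPKM + 1 for genes with exactly the same list of GO terms as HSP70 and HSC70-1, HSP70B, HSP90.1 or HSP101, with the 5 chaperone genes coloured and open circles for genes below 1 FPKM in both libraries. The coloured points run from −3.76 to −1.59, and the others from −1.29 to 0.53. The 5 genes were picked from a list of lower genes, so nothing is read from this gap. Of all expressed genes, 1.62% were at least 4-fold lower in drought and 6.6% at least 2-fold lower.

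Partners and regulators of these chaperones were taken from the same group of the study and so were also chosen on these libraries as lower under drought. The 12 described here were picked by name and are only a part of that group. Of these 12 genes, 11 were at least 4-fold lower, whereas 1.62% of all expressed genes were. Their log2 ratios lay between −2.97 and −1.99, with a median of −2.33. Because they were picked as lower, nothing is read from the distance between these shares. Among co-chaperones, ROF1, a peptidyl-prolyl isomerase that binds HSP90 in Arabidopsis, had 11.3 FPKM in drought and 54.4 FPKM in control. AT2G20560, a J-domain protein of the kind that delivers substrates to HSP70, had 10.9 FPKM in drought and 54.5 FPKM in control, and ATERDJ3A, a J-domain protein of the endoplasmic reticulum, had 1.57 FPKM in drought and 10.2 FPKM in control. AT1G23100, a GroES-like co-chaperonin, had 22.3 FPKM in drought and 91.5 FPKM in control and was just short of the limit. MTHSC70-2, a mitochondrial HSP70, had 5.80 FPKM in drought and 43.3 FPKM in control. Its log2 ratio of −2.71 lay between those of the cytosolic HSP70B and HSC70-1.

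The transcriptional regulators were lower in level than HSP70, HSP70B, HSC70-1 and HSP90.1 in both libraries. HSFA2, a heat shock factor that prolongs the expression of chaperone genes in Arabidopsis, had 0.398 FPKM in drought and 6.18 FPKM in control. HSFA6B had 0.830 FPKM in drought and 9.47 FPKM in control. Like HSP101, HSFA2 and HSFA6B were below 1 FPKM in drought, so their ratios are uncertain. HSFB2B, of the class of heat shock factors without an activation domain, had 1.46 FPKM in drought and 18.3 FPKM in control. MBF1C, a transcriptional coactivator, had 3.20 FPKM in drought and 19.7 FPKM in control. HSP101 was below all 4 regulators in drought and in control. The small heat shock proteins, which hold unfolded proteins without ATP, included HSP21 of the chloroplast at 3.23 FPKM in drought and 26.8 FPKM in control. HSP23.6, of the mitochondrion, had 12.4 FPKM in drought and 63.9 FPKM in control, and AT1G52560 had 3.51 FPKM in drought and 23.8 FPKM in control.

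The wider stress terms that the 5 genes carry were counted with and without the 5, which were picked as lower, beside the 1.62% of all expressed genes that were at least 4-fold lower in drought and the 2.48% that were higher. Of 262 expressed genes with response to heat, which is on all 5, 27 were at least 4-fold lower (23 without the 5) and 4 higher, and the median log2 ratio was −0.39. Response to hydrogen peroxide had 26 lower (23 without the 5) and 2 higher of 193 genes and a median of −0.41. Response to high light intensity likewise had 26 lower (23 without the 5) and 2 higher, of 226 genes, and a median of −0.35. Of 80 genes with heat acclimation, a term on HSP70B and HSP101, 11 were lower (10 without the 5) and 0 higher, and the median was −0.43. For response to endoplasmic reticulum stress the counts were 15 lower (12 without the 5) and 2 higher of 198 genes, with a median of −0.34. A wider list of 356 genes that carry this term or endoplasmic reticulum unfolded protein response had 19 lower (16 without the 5) and 3 higher and a median of −0.19. Unfolded protein binding, carried by HSP90.1, had 4 lower (3 without it) and 2 higher of 105 genes and a median of −0.28. Response to water deprivation, which none of the 5 carries, had 21 lower and 5 higher of 342 genes and a median of −0.06. These lists overlap one another.

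**Figure D4:**
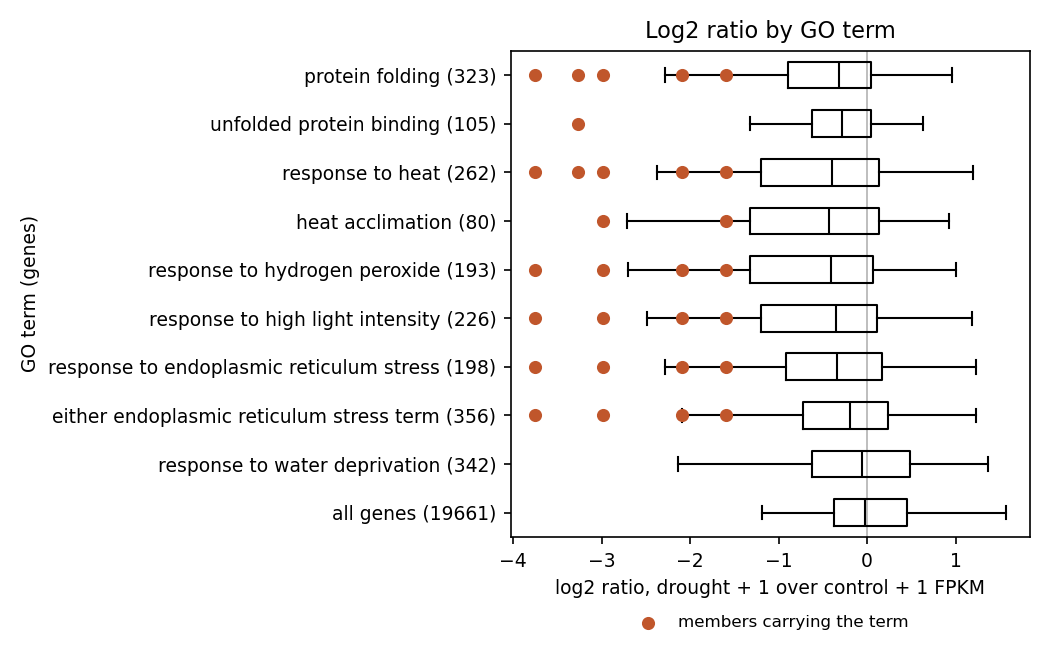
Log2 ratio of drought FPKM + 1 over control FPKM + 1 for genes with each GO term and for all 19661 expressed genes, as boxes from the lower to the upper quartile with the median as a line and whiskers from the 5th to the 95th percentile. The coloured points are those of the 5 chaperone genes that carry the term. The second endoplasmic reticulum row holds genes with that stress term or with the unfolded protein response term, and the medians run from −0.43 for heat acclimation to −0.03 for all genes.

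Combined with a second term, protein folding held the following numbers of lower genes, in combinations chosen after the values had been seen. Of all expressed genes, 1.62% were at least 4-fold lower in drought and 2.48% at least 4-fold higher. With response to heat, 23 of 143 folding genes were at least 4-fold lower and 1 higher, and the median log2 ratio was −0.80, or −0.65 without the 5 genes. With cytosol, 5 of 75 were lower and 0 higher, and 4 of those 5 were HSP70, HSP70B, HSC70-1 and HSP90.1, which leaves 1. With chloroplast, 9 of 94 were lower and 3 higher, and HSP70B is among the 9, which leaves 8. With mitochondrion, 6 of 48 were lower and 0 higher, and HSP70 and HSC70-1 are among the 6, which leaves 4. With endoplasmic reticulum, 0 of 25 were at least 4-fold lower or higher, and their median was −0.31.

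The genes whose pair of values came nearest to each of the 5 were found by Euclidean distance in log2(FPKM + 1) over the 2 libraries. Nearest to HSP70 were LEA4-5, a late embryogenesis abundant protein, at 12.9 FPKM in drought and 211 FPKM in control, and CER1, an enzyme of cuticular wax synthesis in Arabidopsis, at 16.4 FPKM in drought and 197 FPKM in control. Their distances were 0.158 and 0.189. The nearest to HSP70B were the laccase LAC7 at 8.51 FPKM in drought and 64.3 FPKM in control and the peroxidase PRX52 at 9.50 FPKM in drought and 73.1 FPKM in control. The nearest to HSC70-1 were Phvul.001G065400, at 15.3 FPKM in drought and 67.3 FPKM in control and a distance of 0.0274, and EGY3, itself a protein folding gene by its terms, at 15.7 FPKM in drought and 69.3 FPKM in control and a distance of 0.0343. HSP90.1 had Phvul.002G199800 and Phvul.001G255200 nearest to it, at distances of 0.160 and 0.205, and HSP101 had Phvul.002G300900 and Phvul.004G118200, at distances of 0.0596 and 0.0778. Protein folding genes are a part of all expressed genes, so the nearest distances among them alone cannot be smaller. Nothing is read from the larger distances among folding genes alone. HSP70 had Phvul.006G046000 and Phvul.011G169900 nearest to it there, at 0.795 and 0.820, HSP70B had Phvul.008G228100 and AT2G20560, at 0.517 and 0.542, and HSC70-1 had EGY3 and Phvul.001G258200, the last at 0.265. MTHSC70-2 and HSP70B were nearest to HSP90.1, at distances of 0.470 and 0.549. For HSP101 the nearest folding genes were Phvul.003G135400, at 0.375 FPKM in drought and 2.48 FPKM in control, and Phvul.003G135200, at 0.418 FPKM in drought and 2.89 FPKM in control. With only 2 libraries many genes can lie near any pair of values.

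As a check of the tissue, 141 expressed genes with the term photosynthesis showed a median of 84.8 FPKM in drought and 79.5 FPKM in control. Over all expressed genes the medians were 11.5 FPKM in drought and 11.6 FPKM in control, so photosynthesis genes were abundant in both libraries. Their median log2 ratio was 0.33, with 1 gene at least 4-fold lower and 2 higher. The bearing of this difference on the values of the chaperone genes was not tested.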

How the data were processed

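Aerial tissue of PS plants was compared between drought and control, with 1 library per condition. According to the study's methods and the labels, reads were called with CASAVA 1.8.2, checked with FastQC, aligned with TopHat and quantified with Cuffdiff, whose FPKM values the authors deposited. The labels mention replicate libraries, whereas the table has 1 column per condition. The authors' fold changes, test statistics, p-values and q-values in the deposited table were not used, and 0 columns of per-sample values were left aside. Reads per gene are not in the table and could not be recovered from FPKM, so the depth behind each value is unknown and no counting interval is given.

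From the FPKM, log2 ratios with 1 added were computed in Python 3.11.15 with pandas 2.3.3, and genes needed FPKM of at least 1 in either library for counts and ranks. The calculation was run on simulated data with differences well past the 4-fold limit, set in well-expressed genes. That run checks the code only and does not bear on genes near the limit or at low FPKM. No test was run across genes. GO terms were those of the table, present for 90.3% of genes. In 227 genes the list of terms reaches 1024 characters and may be cut short. Starts were shifted to count from 1.

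The 5 genes and the GO lists were chosen with earlier results of these data known. Genes named are the 5, the 5 folding genes with the lowest, the 5 with the highest ratio and the 5 with the highest control FPKM. Also named are 12 partner genes, picked by name from the study's group. The 2 nearest genes to each of the 5, among all genes and among folding genes, were named too. Families by RefSeq description could not be formed, since 0 identifiers matched that table, and the term photosynthesis served as tissue check. Genes sharing an exact list of terms, chromosome neighbours, combined terms and the single endoplasmic reticulum stress term were added after the values had been seen. Symbols are those of the study. Alternatives were pseudocounts of 0.1, 0.01 and none, 2 scalings, centring on the median, other filters on low FPKM, a 2-fold limit and ranking by FPKM difference.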

Additional observations from a re-analysis of the deposited data

How the results depend on the processing

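With 1 library per condition, no replicate could be left out. No paired analysis was possible because each condition has 1 library and no test was run. The log2 ratio of HSP101, −1.59 with 1 added, was −3.08 with 0.1, −3.48 with 0.01 and −3.54 with nothing added. The last setting was chosen after seeing the data. With the smaller constants all 5 genes were thus at least 4-fold lower. For the other 4 genes each alternative moved the log2 ratio by less than 1.5-fold. Scaling to the 75th percentile or to the same sum of FPKM left 3 genes past the limit, since HSC70-1 came just inside it, at −1.99 with the same sum. Protein folding genes at least 4-fold lower numbered 37 with 0.01 added and 72 at 2-fold, in place of 24. Those higher numbered 10 with 0.1, 12 with 0.01 and 17 at 2-fold, in place of 5. The shares of all expressed genes past the limits were computed only with 1 added and without scaling. At 4-fold they were 1.62% lower and 2.48% higher, and at 2-fold 6.6% lower and 11.7% higher. Nothing is therefore read from the counts of the 5 genes or of folding genes at the other constants and scalings. Over the alternatives the rank among folding genes ranged from 1 to 5 for HSP70, 2 to 24 for HSP90.1, 6 to 23 for HSP70B, 22 to 32 for HSC70-1 and 9 to 176 for HSP101, which has no rank where FPKM of at least 5 was required. The log2 ratios of the 5 genes and the median of the folding genes stayed below 0 under every alternative run for them, whereas the median of all expressed genes turned from −0.03 to 0.06 under either scaling. Depth is unknown and each condition has 1 library for every gene.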
